A study of Mus musculus with 18 samples.

Results

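Lung epithelial cells with the highest activity of a Wnt reporter were compared with cells of low reporter activity. The comparison uses 12 of the 18 arrays of the series: 6 titled Wnthigh and 6 titled Wntlow, with the run as a block. It covers 30142 genes, each read from a probe set with 1 gene symbol, and from the brightest such probe set where a gene had several. All mice were of the TCF/Lef:H2B/GFP strain and 8 to 12 weeks old, and none received a treatment named in the labels. In this strain TCF/Lef binding elements drive green fluorescent protein fused to histone H2B, so the label sits in the nucleus and follows from beta-catenin-dependent transcription. The sort read this label as protein, whereas the arrays read RNA, and how long the protein lasts in the cells was not measured here. Lungs with trachea and bronchi were digested with dispase for 45 min, cells bearing CD31 or CD45 were removed on beads, and EpCAM-bearing cells were enriched. Live EpCAM-positive cells were then sorted into GFPhigh, GFPlow and GFPneg fractions. Each sample was a pool of 3 to 4 animals, and 8 ng of RNA was amplified. Wnt-high arrays come from experiments 2, 4, 5, 7, 8 and 9, and Wnt-low arrays from experiments 3, 4, 5, 7, 8 and 9. The 6 Wnt-negative arrays serve only as the level at the bottom of the sort. The labels call the tissue distal lung, although the dissociated organs included the trachea and bronchi.

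Canonical Wnt signalling works by sparing beta-catenin from a destruction complex of Axin, Apc and Gsk3 kinases, so that it can join TCF/Lef factors on DNA. The pathway induces its own brakes, among them Axin2, Nkd1, Notum and the ubiquitin ligase Znrf3. In the airway, multiciliated cells carry motile cilia that beat mucus upwards, while club and goblet cells secrete the fluid, mucins and defence proteins around them. In the alveolus, type II cells make surfactant and type I cells form the thin gas exchange surface.

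Values are log2 levels as deposited, and a difference is Wnt-high minus Wnt-low on that scale. The arrays fell into an earlier run (experiments 2 to 5) and a later run (experiments 7 to 9), whose medians lay at 4.62 to 4.77 and at 3.55 to 3.69. Levels are therefore compared within a run, and every fitted difference has the run as a term. Background was taken on each array as the 95th percentile of 1717 olfactory and vomeronasal receptor genes. Arrays of 1 group and run correlated at 0.977 to 0.996 across genes, lowest among the earlier Wnt-low arrays. The sorted cells were epithelial by their markers. Epcam differed by 0.03 and lay at 11.59 to 11.68 on the 6 earlier arrays and at 9.85 to 10.05 on the 6 later ones. The leukocyte genes Ptprc and Tyrobp and the endothelial gene Pecam1 were not above background on any of the 12 arrays, and neither were 7 of all 12 myeloid and 6 of all 9 endothelial markers. Kdr and Cd14, from the same lists, were detected and are given with the other cell types. The mRNA of the reporter itself was not analysed here.

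The fractions differed across much of the transcriptome. At an adjusted p under 0.05, 25.4% of the 30142 genes were called, 3119 higher (10.3%) and 4541 lower (15.1%) in Wnt-high. With a difference of at least 1 log2 in addition, 1284 genes (4.26%) were higher and 1394 (4.62%) were lower, 8.88% in all. Differences of at least 4 log2 were seen for 24 genes in the higher and 41 in the lower direction. The median over all genes was -0.01. These are bulk measurements, so fewer cells of a type and less RNA per cell cannot be told apart in any value below. Groups separated completely in both runs for 2424 genes above (8.04%) and 3115 below (10.3%). No called gene changed sign between runs, which a call from both runs together largely ensures. A test of run by group called 0 genes, with 1949 at an unadjusted p under 0.05 (limma). It rests on 3 arrays per fraction and run. List medians still differed in size between the earlier and later run, as for club cell genes (-1.52 and -3.28) and cell cycle genes (-1.11 and -0.41).

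**Figure D1:**
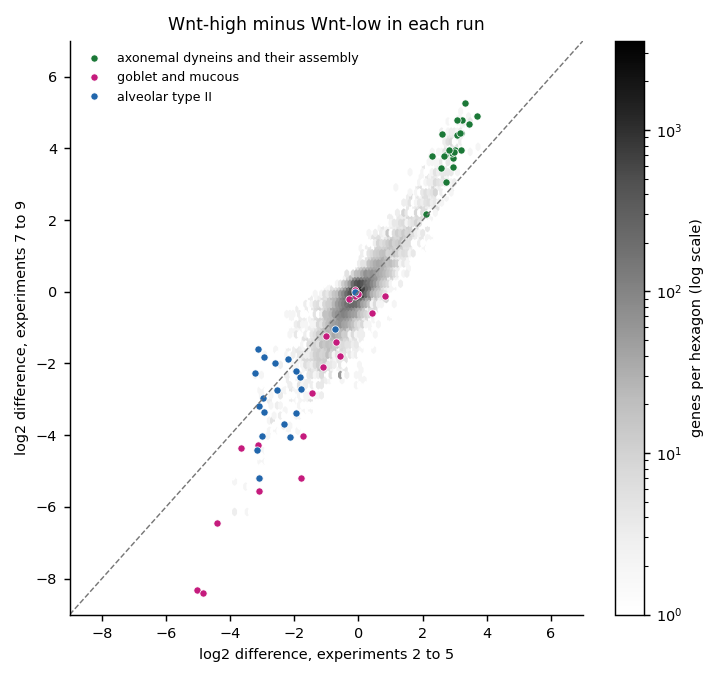
Log2 difference between Wnt-high and Wnt-low in experiments 2 to 5 (x axis) against experiments 7 to 9 (y axis), with grey hexagons for the density of the 30142 genes (log scale) and coloured points for members of 3 lists. Axonemal dynein genes lie at the upper right and goblet genes such as Muc5b (-5.04 and -8.31) at the lower left.

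Nearly all measured genes of motile cilia were higher in Wnt-high. All 22 measured genes for axonemal dyneins, the motors of ciliary beating, and their assembly factors were higher, with a median of 3.46 log2. All 20 genes for radial spokes, the central pair and associated axonemal proteins were higher as well, with a median of 3.54. Intraflagellar transport and basal body genes were called in 19 of 20 cases at a median of 2.17, the exception being Ift20 at -0.21. All 16 other markers of ciliated cells were higher, with a median of 3.00. The share of all genes called was 10.3% higher and 15.1% lower, and every list count below stands against these shares. All lists were chosen with earlier results of these data known, so their counts are descriptions.

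Dnah5, the heavy chain of the outer dynein arm, shows the form of these differences. Its levels in Wnt-high were 13.70, 13.41 and 12.91 in experiments 2, 4 and 5, and 13.20, 13.25 and 12.87 in experiments 7, 8 and 9. In Wnt-low they were 12.51, 7.39 and 10.17 in experiments 3, 4 and 5, and 6.83, 8.75 and 7.96 in experiments 7, 8 and 9. The groups did not overlap in either run, and Wnt-high arrays lay close together while Wnt-low arrays were spread widely. The fitted difference was 4.29 ± 0.77 (SE, n = 6 and 6, adjusted p = 0.00197, limma). The Wnt-negative mean was 4.60, so Wnt-low sat between the other fractions.

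That spread in Wnt-low was shared by the whole axonemal list. Its mean level lay between 12.24 and 12.71 on the earlier and between 11.38 and 11.69 on the later Wnt-high arrays. In Wnt-low it was 11.18 in experiment 3, 7.51 in experiment 4, 10.09 in experiment 5, and 6.90, 8.25 and 7.43 in experiments 7, 8 and 9. The Wnt-low array of experiment 3 thus came nearest to Wnt-high and that of experiment 4 was farthest in its run. Within experiments that held both fractions, the list was higher in Wnt-high by 4.73, 2.56, 4.79, 3.39 and 3.95 (experiments 4, 5, 7, 8 and 9). Without the Wnt-low arrays of experiments 3 and 4, all 22 genes were still called higher.

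**Figure D2:**
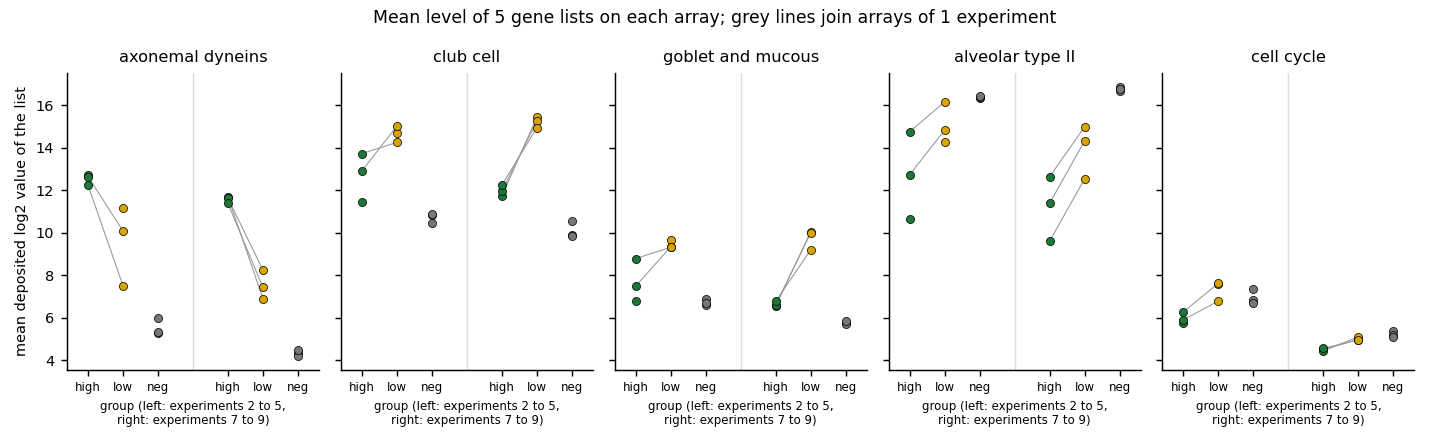
Mean deposited log2 level (y axis) of 5 gene lists on each array, by fraction (x axis) and run, with grey lines joining arrays of 1 experiment. The axonemal list falls from Wnt-high to Wnt-low in every experiment that held both, while the club, goblet, alveolar type II and cell cycle lists are higher in Wnt-low in each of them.

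Several of the 12 genes with the highest differences have known roles in cilia. Drc7 (4.32 ± 0.70), a subunit of the nexin-dynein regulatory complex, Dnaaf3 (4.29 ± 0.65), a cytoplasmic assembly factor for dynein arms, and Hydin (4.21 ± 0.77), a central pair protein, were among them. Gas2l2 (4.12 ± 0.57) encodes a cytoskeletal linker found at basal bodies. The first place was held by A2ml1, an alpha-2-macroglobulin-like protease inhibitor, at 4.79 ± 0.82 (adjusted p = 0.00151). A2ml1 lay at 11.25 to 11.80 on the earlier Wnt-high arrays and at 11.51, 11.55 and 9.44 in experiments 7, 8 and 9. Wnt-low arrays gave 10.54, 5.49 and 7.59 in the earlier run and 4.55 to 4.94 in the later run. No overlap occurred within a run, although the Wnt-low array of experiment 3 again came close to the Wnt-high arrays. Slurp2 (4.55 ± 0.78), a small secreted Ly6-type protein, and Ldlrad1 (4.43 ± 0.72), a membrane protein with low-density lipoprotein receptor repeats, followed. Fam216b, Erich3, Ttc21a and Dydc2 completed the group at 4.08 to 4.25.

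Promoters of genes in this direction were searched for an X-box-like motif, the kind of site that RFX factors bind. The motif was GTNNCC, then any 3 bases, then GNAAC, on either strand, so a printed match may be the reverse complement of these letters. It was searched in windows from 250 bases before to 50 after each RefSeq start (build GRCm38.p6). A match was present for 2.73% of the 17970 tested genes with a window, for 120 of 997 genes at least 1 log2 higher (12.0%), and for 6 of 756 at least 1 log2 lower (0.794%). Among genes at least 3 log2 higher it was present for 31 of 181 (17.1%), and among those at least 3 log2 lower for 0 of 88. Counted per window in place of per gene, the shares were 2.40% of all 21882 windows, 10.2% for genes higher and 0.623% for genes lower. The 6 windows of 100 bases below belong to genes among the most strongly higher with a match, predicted loci left out. They are shown as examples of the match, and its distance from the start played no part in the choice. They run 5′ to 3′ on the gene's strand, with the match in capitals.
Hydin (chr8:110266913-110267012, plus strand): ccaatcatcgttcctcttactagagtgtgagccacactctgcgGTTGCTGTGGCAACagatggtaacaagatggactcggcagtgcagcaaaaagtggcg
Ccdc180 (chr4:45890253-45890352, plus strand): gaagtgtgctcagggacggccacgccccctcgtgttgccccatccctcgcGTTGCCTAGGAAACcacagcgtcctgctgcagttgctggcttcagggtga
Cdkl4 (chr17:80577435-80577534, minus strand): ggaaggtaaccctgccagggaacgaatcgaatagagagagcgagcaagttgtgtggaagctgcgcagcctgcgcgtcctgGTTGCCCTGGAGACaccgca
Spag6l (chr16:16829314-16829413, minus strand): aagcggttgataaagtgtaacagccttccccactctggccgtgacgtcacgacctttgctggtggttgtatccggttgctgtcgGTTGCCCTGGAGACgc
Iqca (chr1:90153480-90153579, minus strand): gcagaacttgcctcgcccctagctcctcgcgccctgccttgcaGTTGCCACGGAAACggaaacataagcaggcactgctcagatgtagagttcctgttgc
Cfap44 (chr16:44394729-44394828, plus strand): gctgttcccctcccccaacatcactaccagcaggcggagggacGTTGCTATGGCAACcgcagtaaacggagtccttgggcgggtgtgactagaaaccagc
The match began 21, 100 and 27 bases before the start in Hydin, Iqca and Cfap44, and 1, 31 and 35 bases after it in Ccdc180, Cdkl4 and Spag6l. These 6 genes differed by 3.70 to 4.21 log2 between the fractions. A match is a string of letters in a window and shows no binding. The TCF/LEF core CTTTGAT, searched the same way, was present for 3.96% of all genes, 3.11% of those at least 1 log2 higher and 3.57% of those at least 1 log2 lower.

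Regulators of ciliated cell formation moved in opposite directions. Of 11 measured regulators, 5 were higher and 3 lower. Trp73 (2.75 ± 0.37), a p53-family factor needed for multiciliated cells, Myb (2.54 ± 0.37), Rfx3 (2.41 ± 0.24) and Rfx2 (2.34 ± 0.26), the factors that bind X-boxes, were higher in Wnt-high, as was Tfdp1 (0.55), a partner of E2F factors. Foxj1, the master regulator of motile cilia, and Gmnc were not measured by a probe set of their own. Rfx3 lay at 10.13 to 10.54 on earlier Wnt-high arrays and at 7.26 to 8.89 on earlier Wnt-low arrays, and at 8.74 to 8.93 and 6.07 to 6.42 in the later run. The groups were clear of each other in both runs.

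The 3 lower regulators, Mcidas, Cdc20b and Ccno, were highest in Wnt-low. Mcidas, which starts the multiciliated programme with E2F factors, was lower in Wnt-high by -1.51 ± 0.27 (adjusted p = 0.00188). Its levels in Wnt-high were 4.87, 5.83 and 5.72 in experiments 2, 4 and 5 and 4.12, 4.20 and 4.36 in experiments 7, 8 and 9. In Wnt-low they were 7.15, 6.38 and 7.95, and then 6.01, 5.37 and 5.32. All Wnt-low arrays lay above all Wnt-high arrays of their run, and the Wnt-negative mean of 4.66 lay below Wnt-low as well. Cdc20b (-1.58 ± 0.24; above background on 5 of 6 Wnt-high arrays), expressed while centrioles multiply, and Ccno (-0.77 ± 0.22, adjusted p = 0.0225), a cyclin-like protein of centriole amplification, were highest in Wnt-low too. Ccno was not called in the later run alone (adjusted p = 0.100) or without the Wnt-low array of experiment 8 (0.0539). Experiments 2 to 5 alone called 0 genes, so calls in a single run are given for the later run only. Deup1, a scaffold of the same centriole amplification, had the opposite sign at 0.76 (adjusted p = 0.0915) and Foxn4 -0.30 (0.107). Deup1 was called in the later run alone (0.00724) and when the experiment formed the block (0.0177).

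Ccno, Mcidas and Cdc20b lie next to one another in RefSeq, followed by Mir449c, Mir449b, Mir449a and Gpx8. The span that RefSeq gives Cdc20b, predicted transcripts included, covers the 3 miRNA genes, Gpx8 and Gzma. A probe set there may therefore also read Cdc20b RNA, which was not tested. Gpx8, a glutathione peroxidase, was higher by 0.66 ± 0.18 (adjusted p = 0.0188), opposite to Cdc20b. Gzma gave 0.10 and was not called (adjusted p = 0.668). The miR-449 and miR-34 families share a seed and are abundant in multiciliated epithelium. The miRNA genes were chosen after their values were seen. RefSeq (GRCm38.p6) gave mature sequences for 4 of the 6 genes of both families, shown because bases 2 to 8, in capitals, are the same in all.
miR-449c-5p: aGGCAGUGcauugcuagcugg
miR-449a-5p: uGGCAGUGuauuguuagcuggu
miR-34b-5p: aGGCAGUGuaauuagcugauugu
miR-34a-5p: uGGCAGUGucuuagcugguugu
Mir449c was lower in Wnt-high by -1.50 ± 0.245 (adjusted p = 0.00122) and lay at 5.82 to 7.02 on earlier Wnt-low arrays against 4.35 to 5.30 on earlier Wnt-high arrays. In the later run the ranges were 4.32 to 5.33 and 3.08 to 3.56. Mir449c was above background on 6 Wnt-low but only 2 Wnt-high arrays. Mir449b gave 0.16 (adjusted p = 0.677), and Mir449a was above background on 2 of the 12 arrays. Mir34b, at another locus, was higher by 1.39 ± 0.28 (adjusted p = 0.00397), with 7.51 to 8.44 in Wnt-high and 5.58 to 6.93 in Wnt-low of the earlier run. In the later run it lay at 6.30 to 7.44 against 5.37 to 5.87. Mir449c and Mir34b, which share the seed, thus had opposite differences. Mir34a, with the same seed, gave 0.11 (adjusted p = 0.305) and was above background on no Wnt-high or Wnt-low array. Probe sets named for a miRNA gene do not tell the mature RNA from its precursor. Of 584 miRNA genes tested, 15 were called higher and 15 lower, 2.57% each way against 10.3% and 15.1% of all genes.

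**Figure D3:**
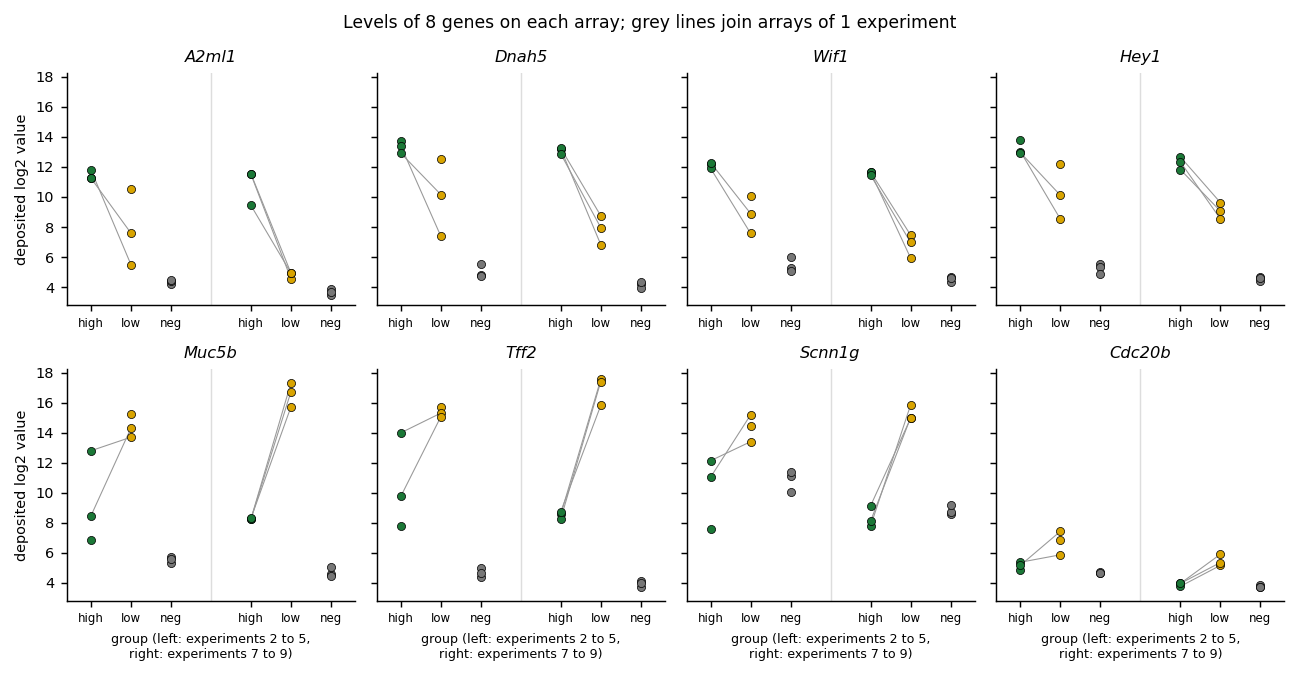
Deposited log2 levels (y axis) of 8 genes on each array by fraction (x axis: high, low, negative) and run, with grey lines joining arrays of 1 experiment. A2ml1, Dnah5, Wif1 and Hey1 are highest on Wnt-high arrays, whereas Muc5b, Tff2, Scnn1g and Cdc20b are highest on Wnt-low arrays in both runs.

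Mucus genes held the lowest differences of all genes tested. Of 20 measured goblet and mucous genes, 15 were lower in Wnt-high and none higher, with a median of -1.88, against 15.1% of all genes. Muc5b, the main gel-forming mucin of mouse airways, had levels of 6.83, 12.79 and 8.46 on earlier Wnt-high arrays (experiments 2, 4 and 5) and 8.24, 8.24 and 8.29 on later ones. Wnt-low arrays gave 15.22, 13.69 and 14.30 (experiments 3, 4 and 5), then 17.30, 16.71 and 15.71. The Wnt-high array of experiment 4 came close to Wnt-low, but the fractions did not overlap in either run. The difference was -6.68 ± 0.98 (n = 6 and 6, adjusted p = 0.000734), and the Wnt-negative mean was 5.11. Tff2, a trefoil peptide secreted with mucins, differed by -6.63 ± 1.01, with a Wnt-negative mean of 4.30.

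Other genes of mucus production followed. Bpifb1, a secreted bactericidal/permeability-increasing-like protein of goblet cells, was lower by -5.44 ± 0.80 and Muc20 by -4.33. The membrane mucin Muc1 (-4.16 ± 0.71), the secretoglobin Scgb3a1 (-4.01) and Creb3l1 (-3.71 ± 0.51), a transcription factor activated at the endoplasmic reticulum, were lower too. So were Agr2 (-2.88), a disulfide isomerase for mucin folding, Muc5ac (-2.14; above background on 3 of 6 Wnt-high arrays) and Spdef (-1.13), a goblet cell transcription factor. Clca1, above background on 1 Wnt-high and 5 Wnt-low arrays, was called at -3.48 (adjusted p = 0.0228) but not without the Wnt-high array of experiment 7, 8 or 9 or the Wnt-low array of experiment 8 (0.0517 to 0.053). With the experiment as a block it was not called (0.0774), and 11 of the 20 genes were. The mean of the list was lower in Wnt-high by -0.53 in experiment 4 and by -1.85 to -3.51 in experiments 5, 7, 8 and 9. Among 19 mucin glycosyltransferases, which add and extend O-linked sugars, 8 were lower and 3 higher. Galnt5 (-2.57 ± 0.36) and Galnt4 (-1.70 ± 0.29) had the lowest differences and Galnt6 (1.32 ± 0.21), above background on 2 of 6 Wnt-low arrays, the highest. The endoplasmic reticulum list, which serves folding of secreted proteins, had 9 of 18 genes lower, led by Creb3l1 and Creb3l2 (-2.47 ± 0.32), and 2 higher.

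Club cell genes were lower in 12 of 14 cases, with a median of -2.47 and none higher (85.7% lower, against 15.1% of all genes). This list was chosen with earlier results of these data known, so the count describes its members and tests nothing. Chad, an extracellular leucine-rich repeat protein, had levels of 5.13, 11.29 and 8.90 on earlier and 6.03 to 6.99 on later Wnt-high arrays. Wnt-low arrays lay at 12.99 to 13.92 and at 14.10 to 15.32, above every Wnt-high array of their run. The difference was -6.55 ± 0.97. Aox3 (-5.03 ± 0.74), an aldehyde oxidase, and Gabrp (-4.64 ± 0.80), a GABA receptor subunit found in airway epithelium, were also far lower. The 2 most abundant club cell transcripts moved little on this scale. Cyp2f2 gave -0.17 (adjusted p = 0.104) at mean levels of 19.03 and 19.20. Scgb1a1, the club cell secretoglobin, gave -0.90 ± 0.27 (adjusted p = 0.0314), a call lost after quantile normalization (0.399) and on leaving out any of 8 single arrays (0.051 to 0.0665). Both lie near the top of the scale, and how the scale compresses there was not tested.

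Secreted antimicrobial proteins were lower in 10 of 18 cases (55.6%), with none higher. Ltf, which encodes the iron-binding lactoferrin, fell from 12.67 to 14.09 on earlier Wnt-low arrays to 7.68, 12.01 and 8.40 in Wnt-high of experiments 2, 4 and 5. In the later run the ranges were 13.18 to 16.24 and 8.43 to 9.16, again without overlap, and the difference was -5.00 ± 0.83. Pigr (-3.82 ± 0.58), the receptor that carries immunoglobulin A to the lumen, Reg3g (-3.06), a bactericidal lectin, Bpifa1 (-2.68) and the siderophore-binding Lcn2 (-2.31) were lower as well. Wfdc2 was called at only -0.34. Among complement and protease inhibitor genes 5 of 15 were lower, including complement factor B, Cfb (-3.60 ± 0.74), and C1ra (-2.23 ± 0.25). With the experiment as a block 8 of these 15 were called lower.

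Airway ion transport divided by gene. Of 21 measured genes 11 were lower (52.4%, against 15.1% of all genes) and 3 higher (14.3%, against 10.3%). The epithelial sodium channel needs 3 subunits, of which Scnn1g differed by -5.51 ± 0.81 and Scnn1b by -5.23 ± 0.80, while Scnn1a differed by 0.43 ± 0.07 (adjusted p = 0.00126). Scnn1g lay at 13.39 to 15.18 on earlier and 14.95 to 15.83 on later Wnt-low arrays. On Wnt-high arrays it lay at 7.57, 12.13 and 11.03 (experiments 2, 4 and 5) and at 7.78 to 9.13, below all Wnt-low arrays of the same run. Scnn1a stayed between 14.97 and 15.59 on all earlier arrays and between 14.05 and 14.79 on all later ones, with Wnt-high on top in each run. Lrrc26, a regulatory subunit of BK potassium channels, had the lowest difference of the list at -5.93 ± 0.91. Slc12a2 (-3.89), the basolateral chloride loader of secretory cells, Ano1 (-2.58), a calcium-activated chloride channel, Slc26a9 (-2.61) and Cftr (-1.94 ± 0.43) were lower too. Higher in Wnt-high were Clic6 (2.38 ± 0.37) and Kcnmb2 (2.00 ± 0.32), another BK channel subunit.

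Detoxification genes were called lower more often than higher. In the conjugation and carbonyl list 13 of 21 genes were lower and 1 higher. Fmo2, a flavin monooxygenase (-4.75 ± 0.71), Adh7, an alcohol dehydrogenase acting on retinol (-4.43 ± 0.64), and Aldh3a1 (-3.73 ± 0.45) led, and glutathione transferase Gstp1 (0.97 ± 0.17) was the exception. Of 17 cytochrome P450 genes 6 were lower (35.3%) and 2 higher (11.8%, near the 10.3% of all genes). Cyp4a12a, a fatty acid omega-hydroxylase, lay at 10.01 to 11.73 on earlier Wnt-low arrays and 5.18 to 8.45 on earlier Wnt-high arrays, and at 11.97 to 14.16 and 5.92 to 6.01 in the later run. Its difference was -5.67 ± 0.72, and that of its neighbour Cyp4a12b -6.31 ± 0.81. These near-identical genes may share probes, so they are not separate evidence. Cyp2s1 (2.22 ± 0.44) and Cyp2b10 (1.55 ± 0.25) were higher. Pon1, a lactonase (-5.10 ± 0.79), completed the 12 lowest genes. Of 12 antioxidant genes under Nrf2, 4 were lower, among them haem oxygenase Hmox1 (-1.81 ± 0.29), and Txnrd1 (1.01 ± 0.23) was higher.

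Alveolar type II genes had a low median of -2.65, yet only 8 of 20 were called lower. The arrays of both fractions varied widely and together by experiment. The list mean in Wnt-high was 10.64, 14.76 and 12.72 in experiments 2, 4 and 5 and 9.60, 11.38 and 12.63 in experiments 7, 8 and 9. In Wnt-low it was 14.29, 16.15 and 14.84 in experiments 3, 4 and 5, then 12.54, 14.32 and 14.98. Within each experiment that held both fractions Wnt-high was lower, by -1.40, -2.11, -2.94, -2.94 and -2.35. With the experiment as a block, 17 of the 20 genes were called lower. Lamp3, a lamellar body protein, moved from an adjusted p of 0.106 to 0.00306 and Napsa, an aspartic protease that processes surfactant protein, from 0.142 to 0.00567. The surfactant genes Sftpd (-3.79 ± 0.73) and Sftpb (-3.10) were called by both fits. Sftpc gave -0.06 (adjusted p = 0.604) at 18.54 to 19.93 on all arrays, at the top of the scale. Wnt-negative arrays had the highest list mean, 16.36 to 16.88.

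Alveolar type I genes were mixed, with 6 of 17 lower and 4 higher. Pdpn (-3.84 ± 0.57), a membrane glycoprotein also present in basal cells, Ager (-3.15 ± 0.82), the receptor for glycation end products, and the water channel Aqp5 (-2.99 ± 0.45) were lower. The axon guidance ligand Sema3e (2.37 ± 0.34), Cav2 (1.09 ± 0.13), Igfbp2 (0.83) and Hopx (0.38) were higher. Ager, Hopx and Igfbp2 were not called in the later run alone (adjusted p = 0.0881, 0.112 and 0.189), and the earlier run alone called 0 genes. Few basal cell genes were above background on all arrays. Krt5 gave -0.41 (adjusted p = 0.141), Krt14 and Trp63 gave -0.01 and -0.04, and of 13 genes 3 were lower. Of these 3, Dapl1 and Krt17 were not called with the experiment as a block (adjusted p = 0.0694 and 0.0566), while Pdpn was (0.0149). Of 8 neuroendocrine genes only Uchl1, a ubiquitin hydrolase, was called, higher by 2.12 ± 0.26. Among 14 tuft cell and ionocyte genes 4 were lower, led by the proton pump subunit Atp6v1c2 (-2.61), and Ascl3 (0.64), an ionocyte transcription factor, was higher.

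**Figure D4:**
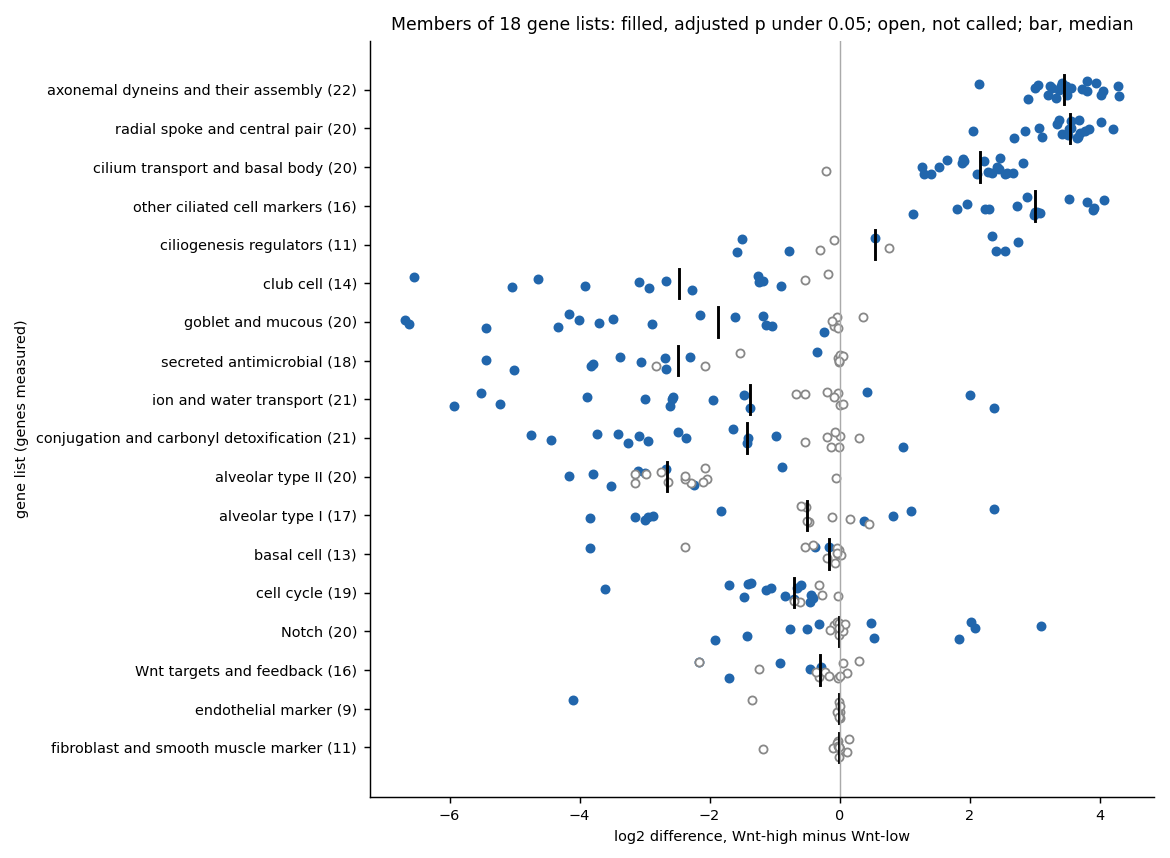
Log2 difference between Wnt-high and Wnt-low (x axis) for each measured member of 18 gene lists (y axis), with filled points for genes at an adjusted p under 0.05, open points for genes not called and bars for medians. The first 4 lists, of ciliary parts and other ciliated cell markers, lie to the right with medians of 2.17 to 3.54. The club, goblet and antimicrobial lists lie to the left.

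No measured gene of the Wnt target and feedback list was called higher in the fraction with the brighter Wnt reporter. Wif1, which was higher, is counted below with the secreted inhibitors. Of 16 measured targets and feedback genes 5 were lower (31.2%, against 15.1% of all genes), none higher, and the median was -0.30. Background was exceeded on no array by 4 of the 16, and on at least 4 Wnt-high arrays by only 9. Axin2, the most used read-out of the pathway, had levels of 5.69, 6.20 and 5.41 in Wnt-high of experiments 2, 4 and 5 and 5.61, 7.21 and 5.84 in Wnt-low of experiments 3, 4 and 5. In experiments 7, 8 and 9 they were 3.87, 3.92 and 3.90 against 3.78, 4.21 and 4.21. In that later run the Wnt-high levels lay just above background, which was 3.78 to 3.80 on those arrays. The Wnt-low level of experiment 7 did so too (background 3.72), so a difference could be hidden there. The fractions overlapped in both runs, and the difference of -0.31 ± 0.26 was not called (adjusted p = 0.456). The Wnt-negative mean of 6.47 was above both.

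Feedback genes were lower, not called or not above background. Znrf3, which clears Frizzled receptors from the membrane, was lower by -1.71 ± 0.37 (adjusted p = 0.00562), and lower in each of 5 experiments, by -1.52 to -1.98. Nkd1, which binds Dishevelled, gave -2.16 ± 0.88 and was not called (adjusted p = 0.106). It was called with the experiment as a block (-1.94 ± 0.39, adjusted p = 0.0184), with all 18 arrays in the fit, and without the Wnt-low array of experiment 7. Notum, a Wnt deacylase, gave -0.36 (adjusted p = 0.192). The adhesion receptor Cd44 (-2.16 ± 0.24), Lgr6 (-0.91 ± 0.18), and Myc (-0.46) were lower. Ascl2 (-0.28) was called lower, but not under the experiment block (adjusted p = 0.0638). Lgr6 was above background on 1 of the 6 Wnt-high arrays. Lef1 and Lgr5 were not above background on any of the 12 arrays.

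Secreted inhibitors included a strong exception. Wif1, which binds Wnt ligands outside the cell, was higher in Wnt-high by 4.05 ± 0.44 (adjusted p = 0.000304). It lay at 11.90 to 12.28 on earlier Wnt-high arrays against 7.57 to 10.04 on Wnt-low arrays, and at 11.45 to 11.67 against 5.94 to 7.47 in the later run. No array crossed, and the Wnt-negative mean was 4.98. Kremen1, a Dickkopf co-receptor, was higher by 1.99 ± 0.17 and Dkkl1 by 0.57 ± 0.10. Sfrp1 (-0.77 ± 0.17) and Dkk2 (-0.75 ± 0.16) were lower, Dkk2 from a level above background on only 2 Wnt-low arrays and on no Wnt-high array. The 3 higher and 2 lower genes were among 15 measured, of which 7 were below background on all arrays, and the 13.3% lower is near the 15.1% of all genes.

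Ligand and receptor genes were called in both directions. Of 21 ligand and ligand-secretion genes 4 were higher and none lower, but 13 of the 21 were above background on none of the 12 arrays. Under the experiment block Wls, which carries Wnt proteins to the surface, was called lower (adjusted p = 0.0423). Wnt11 was higher by 1.97 ± 0.22 and Wnt4 by 1.75 ± 0.27, both ligands with known beta-catenin-independent actions, and Porcn, which acylates Wnt proteins, by 1.27 ± 0.33. Wnt11 lay at 7.56 to 8.27 in Wnt-high and 5.04 to 6.32 in Wnt-low of the earlier run, and at 5.62 to 6.02 and 3.79 to 4.22 in the later run. The fractions were separate in both. Porcn was not called in the later run alone (adjusted p = 0.068). The receptor list of 20 genes also holds secreted R-spondins such as Rspo1, which are not receptors. In it the Frizzled receptors Fzd6 (1.25 ± 0.19), Fzd4 (0.98 ± 0.23) and Fzd3 (0.90 ± 0.18) were among 5 higher. Fzd8 (-0.98 ± 0.14) and Fzd5 (-0.62 ± 0.14) were among 3 lower, a share near the 15.1% of all genes. The third lower gene, Rspo1 (-0.61 ± 0.16), was not called with the experiment as a block (adjusted p = 0.0682). Fzd4 was not called in the later run alone (adjusted p = 0.16). In the list of destruction complex and nuclear factors 6 of 19 were lower, led by the repressive TCF factor Tcf7l1 (-1.14 ± 0.19) and the Groucho-type corepressor Tle4 (-1.01 ± 0.20). The beta-catenin cofactor Bcl9 (1.25 ± 0.12) and the ubiquitin ligase adaptor Btrc (0.70 ± 0.12) were among 3 higher.

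**Figure D5:**
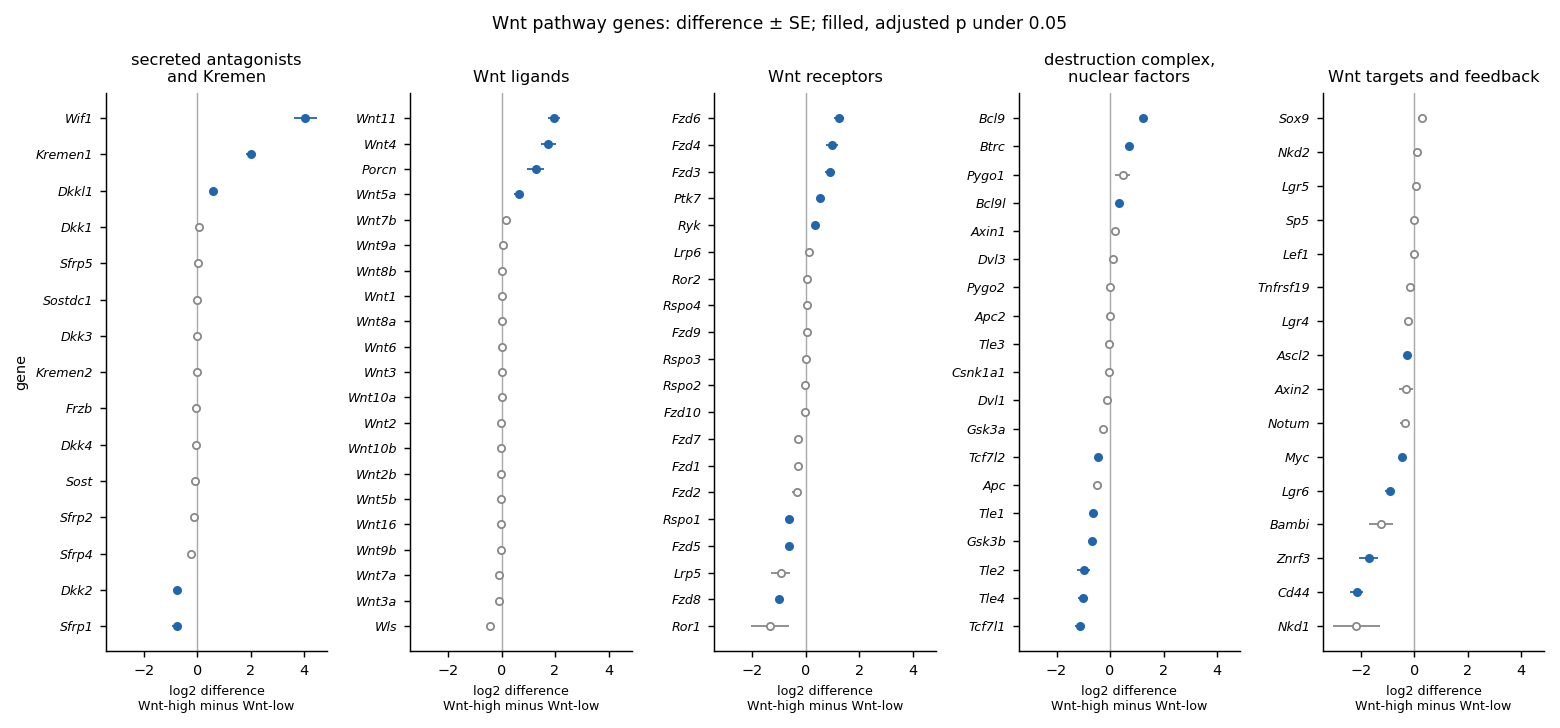
Log2 difference ± SE between Wnt-high and Wnt-low (x axis) for each measured gene (y axis) of 5 groups of Wnt pathway genes, filled where the adjusted p was under 0.05. Wif1 (4.05) and Wnt11 (1.97) stand highest in their groups, and no gene of the target group is called higher.

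Notch genes were called in both directions. Of 20 genes 6 were higher and 5 lower. Jag2 (2.08 ± 0.26) and Jag1 (1.84), both ligands, the glycosyltransferase Lfng (2.02 ± 0.22) and the effector Hey1 (3.09 ± 0.52) were higher in Wnt-high. Hey1 lay at 12.95 to 13.80 on earlier Wnt-high and 8.52 to 12.20 on earlier Wnt-low arrays, and at 11.82 to 12.66 against 8.54 to 9.63 in the later run. The receptors Notch2 (-1.92 ± 0.27) and Notch3 (-1.43 ± 0.23) and the glycosyltransferase Rfng (-0.76 ± 0.14) were lower. Hes1 (-0.50) lost its call in 9 of the 12 fits that left out 1 array (adjusted p = 0.0507 to 0.0695) and under the experiment block (0.0897).

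Proliferation genes were lower in Wnt-high. Of 19 cell cycle genes 14 were called lower (73.7%, against 15.1% of all genes) and none higher, with a median of -0.69. Mki67, present in all cycling cells, had levels of 4.59, 7.43 and 5.68 on earlier Wnt-high arrays and 10.95, 10.77 and 8.88 on earlier Wnt-low arrays. In the later run the levels were 3.51 to 3.96 and 6.43 to 7.23. Wnt-low was above Wnt-high on all arrays of both runs, and the difference was -3.60 ± 0.53. Mki67 was above background on 4 of 6 Wnt-high arrays. Cdc20 (-1.69 ± 0.36), Plk1 (-1.46 ± 0.32) and Top2a (-1.41), which act in mitosis, were lower too. With the experiment as a block 10 of the 19 were called lower. Some immediate early genes, which dissociation can induce, were lower as well, 7 of 17, including Fosb (-2.31 ± 0.61), Klf4 (-2.13 ± 0.39) and Jun (-1.63 ± 0.36). Their part in the other differences was not tested.

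Growth factor genes were called in both directions. In the FGF and EGF list 9 of 22 were lower (40.9%) and 4 higher (18.2%). Btc (-2.35 ± 0.21) and Hbegf (-1.79 ± 0.48), ligands of the EGF receptor, and Fgfr2 (-2.26 ± 0.38), the receptor for Fgf7 and Fgf10, were lower. Egfr (1.67 ± 0.14) and Nrg1 (2.02 ± 0.33), the neuregulin ligand of Erbb3 and Erbb4, were higher. Egfr lay at 9.80 to 10.16 and 8.02 to 8.66 in the earlier run and at 8.36 to 8.63 and 6.52 to 7.08 in the later run, with Wnt-high on top. In the BMP and TGF-beta list 6 of 21 were lower, including Tgfb3 (-2.84 ± 0.73), Bmp4 (-2.52 ± 0.32) and Bmp3 (-2.50 ± 0.28). The BMP-responsive inhibitors of DNA binding Id1 (1.45 ± 0.26) and Id3 (1.22 ± 0.24) and the co-receptor Tgfbr3 (1.32 ± 0.14) were higher. In the list of VEGF, semaphorin and IGF-binding genes 5 of 19 were lower and 4 higher. Igfbp5 (3.33 ± 0.63) was higher, whereas Igfbp7 (-3.14 ± 0.77), Vegfa (-2.95 ± 0.37) and Igfbp6 (-2.82 ± 0.50) were lower. Tgfb3 was not called without the Wnt-low arrays of experiments 3 and 4 (adjusted p = 0.0519).

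Epithelial transcription factors were lower in 9 of 24 cases and higher in 1. The factors of secretory and alveolar epithelium Tfcp2l1 (-3.13 ± 0.49), Elf5 (-2.94 ± 0.35) and Ehf (-2.25 ± 0.28) had the lowest differences, whereas Nkx2-1, the lung identity factor, gave -0.10, Foxa1 -0.04 and Foxa2 0.09, none of them called. Among 10 keratins Krt23 (-4.54 ± 0.72) stood far from the others, of which 3 were lower and 1 higher. One of the lower genes, Krt18 (-0.48), was not called after quantile normalization, where it gave 0.04 (adjusted p = 0.879), or under the experiment block (0.138), which called Krt8 higher (0.00536). Of 18 collagen, laminin and integrin genes 3 were higher and 3 lower (16.7% each), near the shares of all genes. The hemidesmosome integrin Itgb4 (2.57 ± 0.30) and Itga3 (1.61 ± 0.20) were higher, and Itgb6 (-1.22 ± 0.16) and Lamb2 (-1.37 ± 0.22) were lower. Of 17 claudin and junction genes 4 were lower (23.5%) and 2 higher (11.8%), the latter near the 10.3% of all genes, and 2 were lower under the experiment block. Cldn10 (-2.67 ± 0.43) and Cldn4 (-1.87 ± 0.41) were lower, although Cldn4 was not called with the experiment as a block (adjusted p = 0.0654). Of 16 YAP/TAZ genes 4 were higher, led by Nt5e (2.58 ± 0.39), an enzyme that makes adenosine, and Crim1 (2.17 ± 0.37), and 4 were lower.

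Interferon and lipid genes were called in both directions. Of 17 interferon-stimulated genes 4 were higher and 5 lower. Usp18, which removes the ubiquitin-like Isg15, was higher by 3.90 ± 0.70 and lay at 13.13 to 14.05 in Wnt-high against 8.20 to 12.50 in Wnt-low of the earlier run, then at 13.34 to 13.51 against 7.41 to 10.08. Bst2 (-1.44 ± 0.25) and Ifit2 (-1.41 ± 0.30; above background on 3 of 6 Wnt-high arrays) were lower, and Isg15 gave -0.02. None of 9 MHC class II genes was called, with H2-Ab1 at -1.78 (adjusted p = 0.0728). Blocking on the experiment called 3 of the 9 lower, H2-Ab1 among them (adjusted p = 0.00927). Chemokine and cytokine genes were lower in 10 of 20 cases (50% against 15.1% of all genes) and higher in 1, Il18 (0.74), the lower ones including Cxcl16 (-3.01 ± 0.56), Il34 (-1.86) and Ccl20 (-2.46 ± 0.61). Of 16 genes of fatty acid and cholesterol synthesis 5 were lower and 3 higher, and with the experiment as a block 9 were lower and 2 higher. Fads2 (-3.03 ± 0.80), a desaturase, and Insig1 (-2.36 ± 0.47), a sterol sensor partner, had the lowest values and Dgat2 (2.08 ± 0.27), a triglyceride synthase, the highest.

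Few markers of other cell types were called. Of 9 endothelial genes only Kdr, a VEGF receptor, was called (-4.09 ± 0.59), with 9.56 to 11.99 on earlier and 9.78 to 10.81 on later Wnt-low arrays, while Pecam1, Cdh5, Cldn5, Emcn and 2 others were below background on all 12 arrays. Of 12 myeloid genes Cd14 (-2.09 ± 0.27) was lower and Csf1r (0.30 ± 0.10) was higher at an adjusted p of 0.0475, a call lost on leaving out any of 10 single arrays (0.0611 to 0.0999), while 7 of the 12 were below background throughout. No lymphoid gene of 9 and no fibroblast or smooth muscle gene of 11 was called, and Dcn was the only gene of the latter above background on all arrays of a fraction, Wnt-low. The mesothelial genes Upk1b (-3.05 ± 0.46) and Msln (-2.52 ± 0.63) were lower, while Wt1 and Calb2 were below background. Msln was highest on the Wnt-low array of experiment 8, at 9.46 against 5.38 to 6.63 on the other later Wnt-low arrays. None of 4 erythroid and platelet genes was called. Under the experiment block 3 further markers were called lower, the macrophage gene Cd68 (-0.82, adjusted p = 0.000891), the fibroblast gene Dcn (-1.20, 0.0084) and the platelet gene Pf4 (-1.11, 0.0153), each lower in all 5 experiments that held both fractions.

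Against the Wnt-negative fraction, the genes of both directions took different courses. Of the 1284 genes at least 1 log2 higher in Wnt-high, 1201 had Wnt-low in the middle and 83 had Wnt-low as the lowest fraction, among them Egfr, Itga3 and Bcl9. Of the 1394 genes at least 1 log2 lower, 705 were highest in Wnt-low, as Muc5b, Chad and Scnn1g were, and 689 were highest in Wnt-negative, as Sftpd, Muc1 and Znrf3 were. These orders are of group means and were not tested.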

How the data were processed

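RMA made the log2 levels that the authors deposited, according to the submitters' processing notes. Which software ran it, and on which build, is not given in the sources used here. Values ran from 1.79 to 19.93, above what a 16-bit scanner allows, so differences are given on the deposited log2 scale and not as ratios of RNA.

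Without controls the array holds 65770 probe sets. The platform annotation gives 30604 of them a single symbol, 2146 several and 33020 none, and 827 symbols were updated through gene identifiers of RefSeq (GRCm38.p6). Where probe sets competed for a gene (355 genes), the brightest over the 18 arrays was used. No filter was applied to dim genes. Of the 1394 genes counted as at least 1 log2 lower, 1327 had distinct values, and 48 small nuclear RNA loci had identical ones.

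Differences were fitted with limma 3.58.1 in R 4.3.3 (lmFit and eBayes, two-sided) on 12 arrays with the run as a fixed block, with Benjamini-Hochberg adjustment across 30142 genes. The fit was checked on simulated data. No library depth exists for arrays; their number limits the precision. Experiment numbers are shared labels of the sorts. Residuals of same-numbered arrays, with group removed, correlated at 0.578 to 0.802 in the 5 experiments that held both fractions (0.188 to 0.516 with the run removed too), so the experiment block was run as an alternative, and its values stand beside the described genes that it gains or loses and the lists whose counts it moves by over 1.5 times. Experiments 2 and 3 held 1 of the 2 fractions each.

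The genes named are 12 fixed ones (Foxj1 had no probe set of its own), the 12 highest and 12 lowest called genes with the same sign in both runs and no predicted locus, and up to 3 called members per direction of each of 46 gene lists. Any other gene was picked with its values in view. The comparison and the lists were chosen with earlier results of these data known. Alternatives covered the block, each run alone, scaling, dim genes, probe set choice, variance model and left-out arrays.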

Additional observations from a re-analysis of the deposited data

Results flagged for a closer look

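In 6 arrays of 1 fraction, with each run's mean removed, 31 of 382 sets of values for the named genes held an array standing apart by Dixon's criterion. Chance would set apart about 1 in 20 sets of independent values. Run means were removed here and genes vary together, so the 31 cannot be judged against that share. The array's own value is given with the range of the other 2 arrays of its fraction and run. On the Wnt-high array of experiment 2 this was the case for Lgr5 (4.24 against 4.00 to 4.00), Mcidas (4.87 against 5.72 to 5.83), Ccno (6.47 against 7.27 to 7.28) and Galnt6 (7.29 against 6.47 to 6.58). On the Wnt-high array of experiment 4 this was the case for Muc5b (12.79 against 6.83 to 8.46), Tff2 (13.98 against 7.76 to 9.75), Ltf (12.01 against 7.68 to 8.40), Rfx3 (10.13 against 10.53 to 10.54), Rspo1 (6.77 against 6.33 to 6.39), Upk1b (8.44 against 6.36 to 6.49) and Msln (5.53 against 4.05 to 4.26). On the Wnt-high array of experiment 5 this was the case for Bcl9l (9.15 against 8.84 to 8.89), Lama5 (10.59 against 10.24 to 10.25) and Nrg1 (9.78 against 9.23 to 9.25). On the Wnt-low array of experiment 3 this was the case for Tle2 (6.70 against 7.91 to 8.11), Insig1 (9.66 against 11.07 to 11.90), Cat (17.10 against 17.31 to 17.34) and Vegfa (11.70 against 12.72 to 12.76). On the Wnt-low array of experiment 4 this was the case for Notum (7.04 against 5.89 to 6.15), Cftr (9.09 against 7.11 to 7.52), Rsad2 (5.31 against 5.43 to 5.43), Aldh3a1 (9.73 against 10.93 to 11.55), Ptpn14 (8.32 against 9.87 to 9.99), Col4a4 (5.95 against 5.52 to 5.63) and Fgf7 (4.31 against 4.75 to 4.91). On the Wnt-low array of experiment 8 this was the case for Pdpn (11.55 against 9.02 to 9.87), Ccl20 (9.97 against 6.28 to 7.21), Upk1b (10.45 against 8.35 to 9.10) and Msln (9.46 against 5.38 to 6.63). On the Wnt-low array of experiment 9 this was the case for Lef1 (2.95 against 2.81 to 2.83) and Sftpc (19.71 against 19.87 to 19.93).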

How the results depend on the processing

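The count of 7660 genes called fell to 1095 with no block (596 higher, 499 lower and 1071 at a difference of at least 1 log2). In experiments 2 to 5 alone it was 0 for each of these counts, with 6479 genes at an unadjusted p under 0.05. All 7660 kept their sign there, which a call from both runs together largely ensures. Each single-run fit has 3 arrays per fraction, and the fit of experiments 7 to 9 alone called 5573 genes. Why the earlier run called 0 was not tested. Requiring a difference of at least 2 log2 in place of 1 left 880 of 2678 genes. Leaving out each of the 12 arrays in turn gave 6776 to 7936 genes called, 2826 to 3186 higher, 3905 to 4769 lower and 2490 to 2968 at a difference of at least 1 log2. The experiment as a fixed replicate block gave 7442 genes, 6535 of them shared with the 7660, and as a random replicate block 8449. Median centring gave 7551, quantile normalization 7607 (7626 of the 7660 with the same sign), and the fit without the Wnt-low arrays of experiments 3 and 4 gave 7490. The remaining alternatives of the block, filter, probe set and variance model kept each count within 1.5 times. No gene named by the rule and called with the run as a block changed sign under an alternative. Of the 191 genes named by the rule, the fixed replicate block lost the call of 9 (Bcl9l, Cldn23, Cldn4, Col4a4, Dapl1, Krt17, Oas1a, Rspo1 and Srebf2) and gained that of Nkd1; experiments 7 to 9 alone lost 28. The cause of these changes was not tested. Pools of 3 to 4 animals set the error, and levels near 19 log2 or near background limit what differences can show.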

Other observations

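Outside the lists, further genes separated the fractions without overlap in either run; they were chosen after their values were seen. Higher in Wnt-high were genes known from other tissues, among them Adam8, a metalloprotease of leukocytes (3.99 ± 0.62, SE), Cd7, a lymphocyte surface protein (3.93 ± 0.42), Cd177, a neutrophil antigen (3.80 ± 0.74), Orm1, an acute phase protein (3.78 ± 0.73), and Lhb, the beta subunit of luteinizing hormone (3.76 ± 0.57). Syt5, a synaptotagmin (3.74 ± 0.72), and Pltp, the phospholipid transfer protein (3.72 ± 0.66), were higher too.

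Lower in Wnt-high were Vnn1, a pantetheinase (-4.81 ± 0.68), Plpp3, a lipid phosphatase (-4.80 ± 0.69), Pglyrp1, which binds bacterial peptidoglycan (-4.75 ± 0.76), and Cd36, a fatty acid transporter (-4.48 ± 0.71). Epas1, the hypoxia-inducible factor HIF-2 alpha, differed by -4.36 ± 0.68 and Trf, which encodes transferrin, by -4.22 ± 0.75. Atp6v1b1, a proton pump subunit of specialised epithelial cells, differed by -4.23 ± 0.50, and Gp2, a bacterial receptor of microfold cells, by -3.90 ± 0.74, although it was above background on only 3 of 6 Wnt-high arrays. Plpp3 had a Wnt-negative mean of 5.90, against 15.30 in Wnt-low.

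Transcript classes also differed. Of 914 small nuclear RNA loci 98 (10.7%) were at least 1 log2 lower and 1 (0.109%) higher, and of 4274 pseudogenes 317 (7.42%) were lower and 45 (1.05%) higher. For protein-coding genes the shares were 4.87% lower and 6.07% higher. Small nuclear RNA loci and pseudogenes can share probes with copies or parent genes, and 48 of these loci had identical values on all arrays, so they are not separate measurements.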
